A study of Mus musculus with 9 samples.

Results

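The interferon-induced transmembrane (IFITM) family was followed gene by gene in organoids from mice with a mutated Apc gene. Its members were chosen by symbol, as every row named Ifitm1, Ifitm2, Ifitm3, Ifitm5, Ifitm6 or Ifitm7, which gave 6 of the 23955 rows of the count table. RNA-seq had been done on 9 organoid samples in 3 groups of 3 biological replicates. MIN organoids came from the normal-appearing gut epithelium of APCmin/+ mice, adenoma organoids from the adenomatous polyps of such mice, and the last group from polyps as well, with the non-steroidal anti-inflammatory drug sulindac added. All groups therefore came from mice with the same Apc mutation and shared a growth medium with added growth factors, R-spondin1 among them. Whether the other Apc allele was intact in each group is not given in the sources used here. No wild-type sample was analysed. The dose and duration of sulindac for the organoids, the number of mice, their age and sex, and whether same-numbered samples shared an animal are not given in the sources used here. The p-values below therefore measure the spread between these cultures.

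IFITM proteins are small membrane proteins that interferons induce in many cell types, and they are best known for keeping enveloped viruses from fusing with the cell. Ifitm3 and Ifitm2 act mostly in endosomes and Ifitm1 mostly at the cell surface, while Ifitm5 belongs to bone-forming cells. In the intestine, members of the family are also known as genes that are raised when beta-catenin, the effector of Wnt signalling that Apc normally holds down, is active.

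The promoters of Ifitm1, Ifitm2 and Ifitm3 are shown first, because these members made up nearly all reads of the family and each was higher in adenoma than in MIN. Each line gives 250 bases before the RefSeq start site and 30 bases from it (build GRCm38.p6), read 5′ to 3′ on the gene's own strand, at chr7:140967826-140968105 (plus strand), chr7:140955932-140956211 (minus strand) and chr7:141010715-141010994 (minus strand). Capitals mark matches to GAAANNGAA, the core of the interferon-stimulated response element, or to TTCNNNGAA, the core of the interferon gamma-activated site.
Ifitm1: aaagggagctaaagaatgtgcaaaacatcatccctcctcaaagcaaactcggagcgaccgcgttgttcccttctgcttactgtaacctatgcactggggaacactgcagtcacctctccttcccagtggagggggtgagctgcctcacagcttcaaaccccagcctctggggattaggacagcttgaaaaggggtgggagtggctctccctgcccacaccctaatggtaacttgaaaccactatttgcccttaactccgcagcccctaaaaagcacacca
Ifitm2: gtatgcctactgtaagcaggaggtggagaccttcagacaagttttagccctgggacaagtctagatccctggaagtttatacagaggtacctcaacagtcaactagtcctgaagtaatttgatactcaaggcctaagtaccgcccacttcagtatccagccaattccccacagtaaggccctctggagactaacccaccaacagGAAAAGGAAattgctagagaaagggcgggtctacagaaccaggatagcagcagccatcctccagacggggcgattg
Ifitm3: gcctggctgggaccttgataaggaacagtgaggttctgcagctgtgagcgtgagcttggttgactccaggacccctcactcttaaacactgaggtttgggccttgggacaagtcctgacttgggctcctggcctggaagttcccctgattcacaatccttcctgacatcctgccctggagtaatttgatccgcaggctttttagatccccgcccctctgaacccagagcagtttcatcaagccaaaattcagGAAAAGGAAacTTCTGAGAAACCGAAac

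Over the full RefSeq window of 300 bases, with both strands searched, the Ifitm2 promoter held 1 match to GAAANNGAA, starting at position -46. The Ifitm3 promoter held 2 of them, at positions 3 and 20 after the start site, and 1 match to TTCNNNGAA at position 14 that overlaps the latter. GAAANNGAA occurred in 8.56% and TTCNNNGAA in 8.3% of the 32851 promoters of the same length. None of the 5 motifs searched was found in the Ifitm1 or the Ifitm7 window, which says only that these letters are not there. ATCAAAG, the site of the Wnt effectors TCF and LEF, was found among the members in the Ifitm5 window alone, at position -164 on the opposite strand, and in 3.73% of all promoters. TGANTCA, the AP-1 site, was found among the members only in the Ifitm3 window, at position -105 (7.81% of all promoters). TATAAA, the TATA box, was found in those of Ifitm2, at position -175 on the opposite strand, and Ifitm6, at -46 (13.6% of all promoters).

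The 9 samples held 30881206 to 48412477 counts. Levels are in CPM, a count scaled to the TMM-normalized total of its library, and 3 counts, the floor below which a level was not read, corresponded to 0.0641 to 0.10 CPM. All 8 epithelial markers were above this floor in every sample, with summed levels of 5956 to 8582 CPM in MIN, 3431 to 4531 in adenoma and 4794 to 5709 in sulindac-treated adenoma. Of these, 6 were lower in adenoma than in MIN and 0 higher, against 20.1% and 18.5% of all genes tested. Among the 6 was Krt20, a keratin of differentiated cells (175 ± 10.1 CPM in MIN and 0.752 ± 0.581 in adenoma, SD, n = 3 each). With sulindac 2 of the 8, Krt8 and Vil1, were called higher than in untreated adenoma and 0 lower by edgeR, against 8.32% and 9.10% of all genes tested. The leukocyte markers summed to 4.53 to 6.35 CPM in MIN, 8.33 to 16.6 in adenoma and 2.97 to 4.23 after sulindac, and were, as Ifitm1 and Ifitm3 were, highest in adenoma. Of these 8 markers, Adgre1 was at 0 in every sample, Ptprc, which encodes CD45, had 0 to 1 counts in MIN, 4 to 8 in adenoma and 0 after sulindac, and most of the sum in adenoma was Cd68 (1.67 ± 0.567 CPM in MIN and 11.5 ± 4.24 in adenoma, SD, n = 3 each, log2 fold change 2.79, adjusted p = 0.000193). Itgam, which made up most of the sum in MIN, moved the other way, from 3.74 ± 0.377 to 0.225 ± 0.127 CPM (SD, n = 3 each, log2 fold change -4.02, adjusted p = 3.7e-05). Mesenchymal markers summed to at most 4.22 CPM, in a MIN sample, and endothelial markers to at most 0.758 CPM. Of the mesenchymal markers tested, Pdgfrb fell from 3.57 CPM on average in MIN to 0 to 1 counts per adenoma sample. Pdgfra rose from 0.152 to 0.866 CPM on average. Col1a1 was highest in adenoma, at 0.376, 1.19 and 0.419 CPM on average in MIN, adenoma and sulindac-treated adenoma. Its fall with sulindac passed an FDR of 1% in edgeR, and its rise did not. The part of these cells in the results below was not tested.

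Ifitm1 was nearly silent in MIN organoids and was strongly expressed in adenoma organoids. It had 23, 17 and 16 counts in the 3 MIN samples, 13927, 16474 and 16108 in the adenoma samples, and 1181, 3360 and 1476 in the sulindac-treated samples. On the normalized scale these were 0.560, 0.363 and 0.436 CPM in MIN, 391, 460.2 and 466 CPM in adenoma, and 39.4, 102.7 and 42.9 CPM after sulindac. All 3 groups were apart from each other with no overlap, and sulindac-treated replicate 2 was above the other samples of its group. The log2 fold change of Ifitm1 in adenoma over MIN was 9.92 (standard error 0.20, adjusted p = 1.50e-08 in edgeR's quasi-likelihood test), a 969-fold rise, and only 10 of the 13744 genes tested had a higher one. Compared with untreated adenoma, the sulindac-treated samples were 7.12-fold lower (log2 fold change -2.83, standard error 0.34, adjusted p = 0.000732), and 152 of 12962 genes fell further. Their mean was 14.0% of the adenoma mean and still 135-fold above MIN by the edgeR fit (log2 fold change 7.08, standard error 0.49, adjusted p = 7.11e-06). The adenoma, MIN and sulindac-treated samples each serve in more than 1 comparison, so the changes are not independent of each other. In bulk RNA, fewer cells of a type and less RNA per cell cannot be told apart.

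Ifitm3, whose protein blocks virus fusion in late endosomes, followed the same order of groups over a smaller range. Its levels were 87.1, 99.3 and 58.5 CPM in MIN, 691, 739 and 795 CPM in adenoma, and 190.0, 344 and 173 CPM after sulindac. The groups did not overlap, and the highest sulindac-treated sample was again replicate 2. Ifitm3 rose 9.10-fold from MIN to adenoma (log2 fold change 3.19, standard error 0.20, adjusted p = 3.73e-06), where 511 genes had a higher fold change. With sulindac it was 3.14-fold lower than in untreated adenoma (log2 fold change -1.65, standard error 0.24, adjusted p = 0.00149), a mean of 31.8% of the adenoma mean. It remained above MIN by 1.52 on the log2 scale (standard error 0.29, adjusted p = 0.00192). This last call was lost without MIN replicate 3, the MIN sample with the lowest level (1.33, adjusted p = 0.0169), and without the low-count filter (1.51, adjusted p = 0.0204), with adjusted p between 3.28e-08 and 0.0204 over all 14 alternatives.

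Ifitm2 was already abundant in MIN organoids. Its levels were 155, 179 and 142 CPM in MIN, 297, 309.9 and 359 CPM in adenoma, and 249.8, 312 and 226 CPM after sulindac. The MIN samples lay below all others, whereas sulindac-treated replicate 2 lay within the range of untreated adenoma. Ifitm2 rose 2.03-fold from MIN to adenoma (log2 fold change 1.02, standard error 0.13, adjusted p = 0.000201). With sulindac it did not differ from untreated adenoma beyond the threshold (log2 fold change -0.29, 95% confidence interval -0.59 to 0.01, adjusted p = 0.124). The values of Ifitm1 and Ifitm3 in the same comparison lie outside this interval. Sulindac-treated adenoma was above MIN by 0.72 (standard error 0.14, adjusted p = 0.0016).

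**Figure D1:**
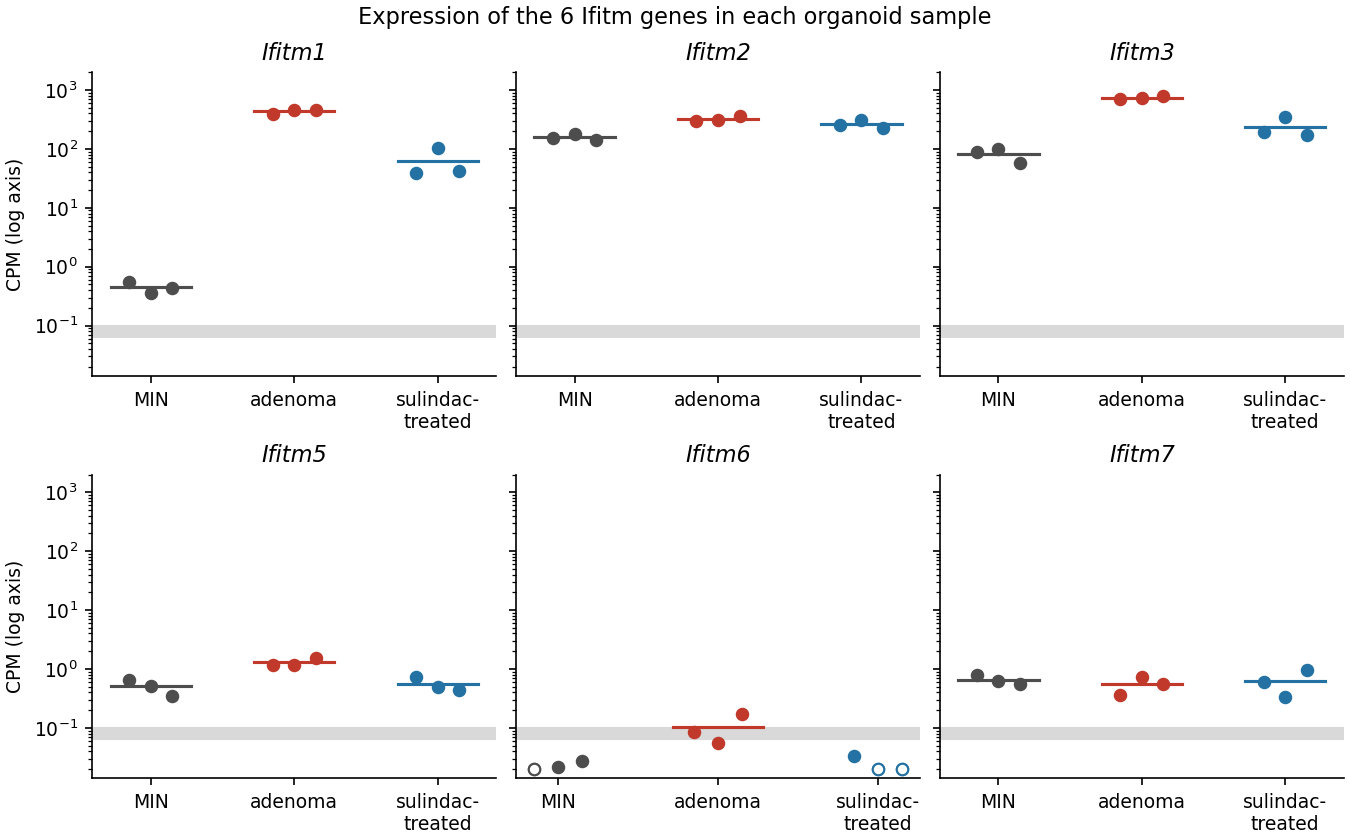
Level of each Ifitm gene in every sample (CPM, log axis), with points for the 3 replicates of each group in order of their number, lines for group means and a grey band for the level of 3 counts (0.0641 to 0.10 CPM). Open circles stand for 0 counts and are drawn at the foot of the axis. Ifitm1 spans 0.363 to 466 CPM with no overlap between groups, Ifitm2 and Ifitm3 are above 58 CPM in every sample, and Ifitm6 lies close to or under the band.

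Ifitm5, Ifitm6 and Ifitm7 were low in counts in every group. Ifitm5, the osteoblast member, had 27, 24 and 13 counts in MIN, 42, 41 and 54 in adenoma and 22, 16 and 15 after sulindac. The adenoma samples, at 1.15 to 1.56 CPM, lay above all MIN samples (0.354 to 0.657 CPM) and all sulindac-treated samples (0.436 to 0.733 CPM), which overlapped each other. Its log2 fold change was 1.34 from MIN to adenoma (standard error 0.33, adjusted p = 0.00804). Leaving out any 1 of the 6 samples ended this call (adjusted p = 0.0126 to 0.0310). Against untreated adenoma the sulindac-treated samples had a value of -1.22 (standard error 0.31, adjusted p = 0.0181), which did not pass the threshold of 1%, and against MIN a value of 0.10 (95% confidence interval -0.75 to 0.96). Of 4 markers of bone-forming cells, in which Ifitm5 is known to work, Ibsp was at 0 in every sample and Bglap and Sp7 had at most 3 counts, whereas Runx2, a transcription factor also used outside bone, rose from 3 to 8 counts per MIN sample to 346 to 406 per adenoma sample.

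Ifitm7, which lies on chromosome 16 and not with the others on chromosome 7, had 32, 29 and 20 counts in MIN, 13, 26 and 19 in adenoma and 18, 11 and 33 after sulindac. The 3 groups overlapped. Its log2 fold change was -0.24 from MIN to adenoma (95% confidence interval -1.04 to 0.56), 0.22 from adenoma to sulindac-treated adenoma (-0.80 to 1.25) and -0.03 from MIN to the latter (-0.98 to 0.91). Changes within these intervals were not detectable at this depth. Ifitm6 had 0, 1 and 1 counts in MIN, 3, 2 and 6 in adenoma and 1, 0 and 0 after sulindac, and was removed by the low-count filter. No fold is given for it, since nearly all samples were at or under 3 counts.

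Of the 6 members, 5 passed the filter on low counts. In adenoma over MIN 4 of these 5 were higher at a false discovery rate (FDR) of 1% (Ifitm1, Ifitm2, Ifitm3 and Ifitm5), where 18.5% of all genes tested were higher, and 0 were lower, where 20.1% of all genes were. In sulindac-treated over untreated adenoma 2 of 5 were lower (Ifitm1 and Ifitm3), against 9.10% of all genes, and 0 were higher, against 8.32%. In sulindac-treated adenoma over MIN 3 of 5 were higher (Ifitm1, Ifitm2 and Ifitm3), against 23.0% of all genes, and 0 were lower, against 26.8%. Each of these counts of 0 was 0 as well at an unadjusted p under 0.05 and with DESeq2. The median log2 fold change of the 5 members was 1.34, -1.22 and 0.72 in the 3 comparisons, and that of all genes tested was -0.01, -0.01 and -0.03.

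**Figure D2:**
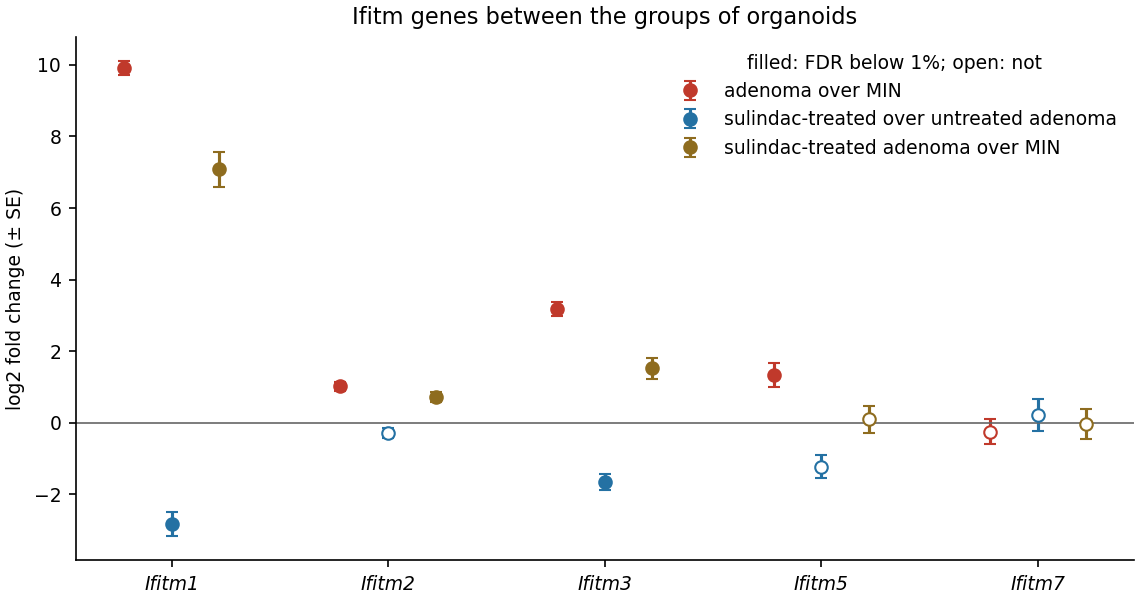
Log2 fold change of the 5 tested Ifitm genes (points) with its standard error (bars) in the 3 comparisons, filled where the FDR was below 1%. Ifitm1 stands at 9.92 in adenoma over MIN and at -2.83 in sulindac-treated over untreated adenoma, while Ifitm7 stays between -0.24 and 0.22.

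The order of the members by their level differed between the groups. Per kilobase of transcript, the scale on which genes can be compared with each other, Ifitm2 led in MIN at 242 ± 28.2 CPM per kilobase (SD, n = 3), above Ifitm3 at 120.4 ± 30.9, without overlap between their samples. Ifitm1, Ifitm5 and Ifitm7 lay far below, at 0.412 to 0.913 CPM per kilobase over all MIN samples. In adenoma Ifitm3 led at 1094 ± 76.3 CPM per kilobase. Ifitm1 (498 ± 47.2) and Ifitm2 (492 ± 49.5) followed and did not differ beyond their spread. In sulindac-treated adenoma Ifitm2 (401 ± 68.2) and Ifitm3 (348 ± 139) overlapped, and Ifitm1 (69.9 ± 40.3) was below both in every sample. Ifitm3 was thus below Ifitm2 in every MIN sample and above it in every adenoma sample.

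**Figure D3:**
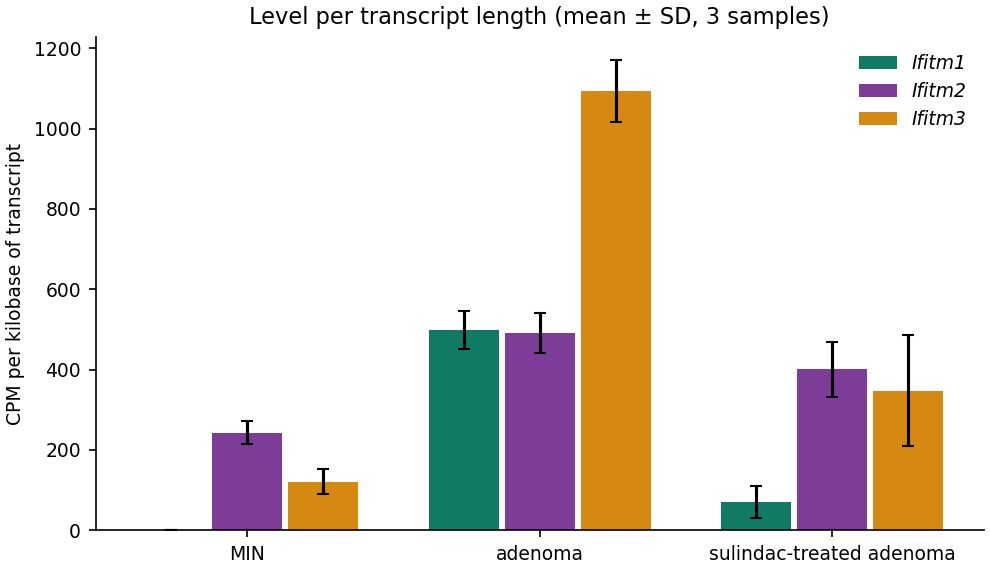
Mean level per kilobase of transcript of Ifitm1, Ifitm2 and Ifitm3 in each group, with the SD over 3 samples as bars. Ifitm2 is the highest in MIN (242), Ifitm3 in adenoma (1094), and Ifitm2 and Ifitm3 lie within each other's spread after sulindac (401 and 348). Ifitm1 in MIN (0.513) is too low to be seen on this scale.

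The members were also compared as a ratio of counts within each sample, which does not depend on the scaling between samples. The log2 ratio of Ifitm3 to Ifitm2 was -0.83, -0.85 and -1.28 in MIN, 1.22, 1.25 and 1.15 in adenoma, and -0.39, 0.14 and -0.38 after sulindac. No 2 groups overlapped, with sulindac-treated samples between MIN and adenoma. The mean ratio was higher by 2.19 in adenoma than in MIN, changed by -1.42 from untreated to sulindac-treated adenoma, and higher by 0.78 in sulindac-treated adenoma than in MIN. The log2 ratio of Ifitm1 to Ifitm2 was -8.90 to -8.09 in MIN, 0.38 to 0.57 in adenoma and -2.67 to -1.60 after sulindac, again without overlap. The log2 ratio of Ifitm3 to Ifitm1 was 7.02 to 8.05 in MIN, 0.68 to 0.82 in untreated and 1.74 to 2.27 in sulindac-treated adenoma, and these ranges were also apart. Each of the 9 comparisons of ratios gave p = 0.1 in a two-sided exact permutation test over 20 arrangements (0.1 after Benjamini-Hochberg adjustment over the 9), which is the smallest p that 3 samples against 3 can give.

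The spread between cultures was not tested. The coefficient of variation of Ifitm1 was 21.9% in MIN, 9.47% in adenoma and 57.7% after sulindac, and that of Ifitm3 was 25.6%, 6.98% and 39.9%. Both coefficients were thus lowest in untreated adenoma. For Ifitm1 the MIN value rests on 16 to 23 counts per sample, so counting error adds to it. Sulindac-treated replicate 2 had the highest level of Ifitm1, Ifitm2 and Ifitm3 in its group, but not of Ifitm5 or Ifitm7. Without this sample, the log2 fold change of sulindac-treated over untreated adenoma was -3.39 for Ifitm1 and -2.01 for Ifitm3 (adjusted p = 0.000562 and 0.000598). Over all alternatives the adjusted p of this comparison was at most 0.00535 for Ifitm1 and 0.00832 for Ifitm3.

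Ifitm1, Ifitm2 and Ifitm3 have identical stretches, from which a read cannot be assigned to 1 of them by sequence, and these are shown for that reason. Coding sequences from GENCODE M21 (GRCm38) were aligned over their whole length. Identity was the share of all alignment columns, with gaps counted as differences. On this measure Ifitm2 and Ifitm3 were the most alike, at 75.86%. Ifitm1 had 60.42% with Ifitm2, 63.5% with Ifitm3 and 67.14% with Ifitm7, and Ifitm5 had 45.93% to 50.0% with the other members. Of the 318 coding bases of Ifitm1, 284 matched Ifitm7 and 261 each matched Ifitm2 and Ifitm3. Of the 411 coding bases of Ifitm3, 330 matched Ifitm2, so the order of pairs depends on how gaps are counted. The longest identical run of Ifitm2 and Ifitm3 had 69 bases (bases 130 to 198 of the Ifitm2 and 133 to 201 of the Ifitm3 coding sequence), and that of Ifitm1 and Ifitm3 had 64 (bases 96 to 159 and 162 to 225). Capitals mark the 40 bases that all 3 genes have in common.
Ifitm2 and Ifitm3: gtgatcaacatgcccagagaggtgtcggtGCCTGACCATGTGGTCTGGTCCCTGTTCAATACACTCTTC
Ifitm1 and Ifitm3: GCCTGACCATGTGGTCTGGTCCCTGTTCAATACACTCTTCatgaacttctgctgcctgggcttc

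Of all 50-base stretches of its transcripts, Ifitm1 shared 1.42% with another member (Ifitm3), Ifitm2 3.3% and Ifitm3 5.56%, and Ifitm5, Ifitm6 and Ifitm7 none. Counting other genes as well, the share was 5.02% for Ifitm1, 10.02% for Ifitm3 and 48.5% for Ifitm2. For Ifitm2 the largest part, 36.1%, was Gm45717, an annotated gene on the same strand that overlaps Ifitm2 and Ifitm5 and has no row in the table. The same gene held all of the 25.3% that Ifitm5 shared. Ifitm7 overlaps 2900011O08Rik on the opposite strand, with which it shared 8.85% of its stretches. How ambiguous reads were assigned, and whether strand was used, is not given in the sources used here. The counts of Ifitm1, Ifitm2, Ifitm3, Ifitm5 and Ifitm7, and the ratios between members, are therefore uncertain. These shares do not bound the error, which also depends on the level of the other gene. In MIN, Ifitm1 had 16 to 23 counts and Ifitm3 had 2148 to 4646. Ifitm3 reads from shared stretches, if given to Ifitm1, could thus be a large part of its count there. The fold changes and ratios of Ifitm1 against MIN are uncertain for this reason, which was not tested.

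Ifitm5, Ifitm2, Ifitm1, Ifitm3 and Ifitm6 follow each other in this order on chromosome 7, with Ifitm1 alone on the plus strand. The 5 protein-coding genes on either side of the cluster were measured as its neighbours. Of these 10, 9 were tested, and edgeR called 0 higher in adenoma than in MIN, as did DESeq2, with 1 at an unadjusted p under 0.05, against 18.5% of all genes. The 2 of 9 that were lower, against 20.1% of all genes, were Nlrp6, a sensor of the intestinal epithelium (346 ± 12.1 CPM in MIN, 3.90 ± 1.84 in adenoma and 55.7 ± 22.0 after sulindac, SD, n = 3 each), and Ano9, a scramblase and channel of the anoctamin family (log2 fold change -1.25, adjusted p = 3.94e-05). Nlrp6 had log2 fold changes of -6.47 from MIN to adenoma and 3.84 from adenoma to sulindac-treated adenoma (adjusted p = 7.63e-07 and 0.000418). The genes next to the cluster on each side, Pgghg (-0.31, adjusted p = 0.0435) and B4galnt4 (-0.05, adjusted p = 0.724), were not called in adenoma over MIN. In sulindac-treated over untreated adenoma B4galnt4 (-0.66) and Sirt3 (-0.60) were lower.

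**Figure D4:**
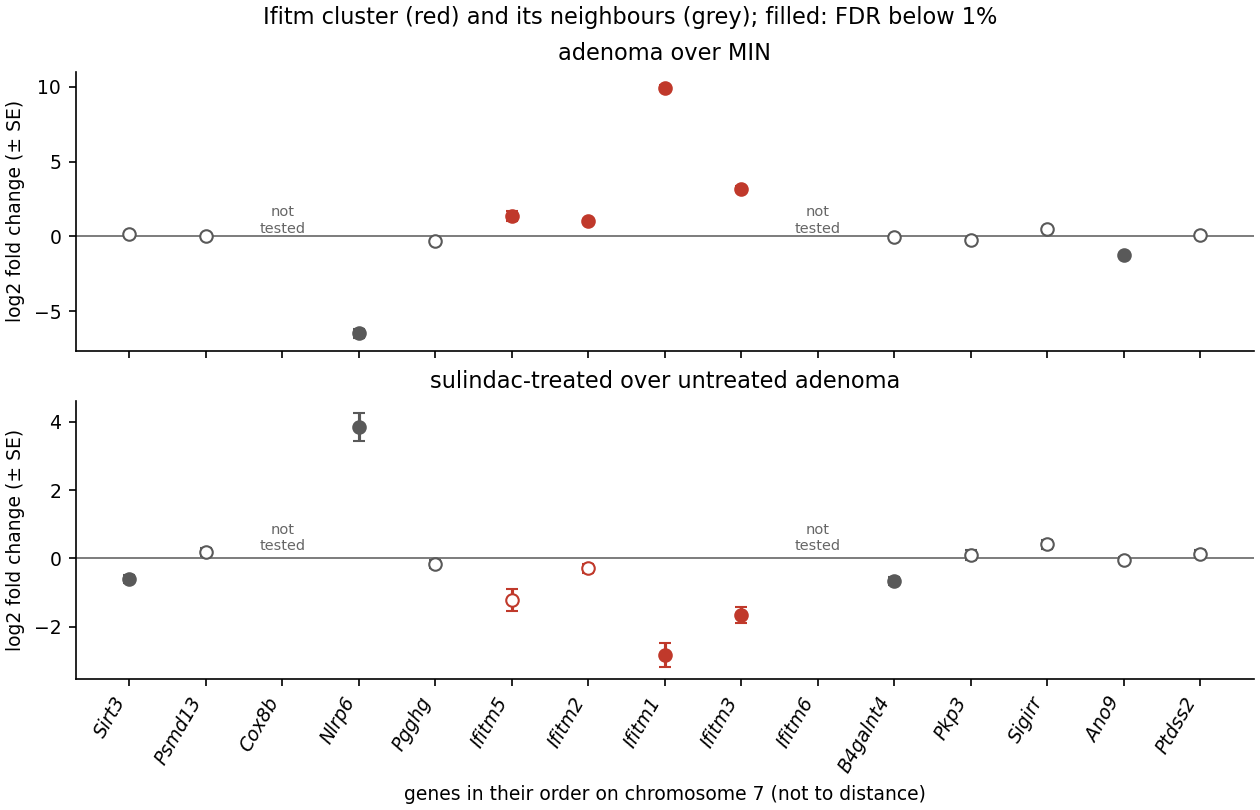
Log2 fold change (points) and standard error (bars) of the 5 Ifitm genes of the chromosome 7 cluster (red) and their 5 protein-coding neighbours on each side (grey), in gene order and not to distance, filled where the FDR was below 1%. In adenoma over MIN the called genes of the cluster are all above 0 and the called neighbours, Nlrp6 and Ano9, below it.

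The genes through which interferons act on the family were measured as a list of 17 receptors and signalling genes. From MIN to adenoma 2 of 17 rose and 2 fell (11.8% each), against 18.5% and 20.1% of all genes, with a median log2 fold change of 0.11. The number that rose was 1 without MIN replicate 2, MIN replicate 3 or adenoma replicate 1, and 4 without adenoma replicate 2. It was also 4 with library size alone, in 1 fit of all 9 samples and with DESeq2, and 5 at an FDR of 5%. Those that rose were Ifnar1 (0.41, adjusted p = 0.00699) and Ifnar2 (0.91, adjusted p = 0.000796), the 2 chains of the type I receptor. Those that fell were Ifngr1, the ligand-binding chain of the interferon gamma receptor (-2.06, adjusted p = 1.32e-05), and Il10rb, a chain of the interferon lambda receptor (-0.92, adjusted p = 0.000187). Stat2 (0.10, adjusted p = 0.506) and Irf9 (0.93, adjusted p = 0.0184), which act in the factor that binds the response element, did not pass. With sulindac 1 of 17 was called higher than in untreated adenoma, against 8.32% of all genes, which was Ifngr1 (0.71, adjusted p = 0.00892), and the call was lost on leaving out any 1 of the 6 samples, with library size alone and with at least 10 counts asked of every sample. Against 9.10% of all genes, edgeR called 0 lower, with 3 at an unadjusted p under 0.05 and 2 called by DESeq2.

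Other interferon-stimulated genes were called in both directions, as all genes were. Of 36 on the list, 31 were tested in adenoma over MIN, of which 9 (29.0%) rose and 6 (19.4%) fell, against 18.5% and 20.1% of all genes, with a median log2 fold change of 0.01. The largest rises were those of Cd274, which encodes the ligand PD-L1 (2.62, adjusted p = 0.00102), Ifi27 (2.35, adjusted p = 0.00038), the antiviral enzyme Rsad2 (1.84, adjusted p = 0.00688) and Xaf1 (1.70, adjusted p = 0.00822). All were smaller than that of Ifitm3 (3.19) and larger than those of Ifitm2 (1.02) and Ifitm5 (1.34). Among those that fell were the immunoproteasome subunits Psmb8, with 31 to 85 counts per MIN sample but 0 to 1 per adenoma sample, and Psmb9 (-2.29, adjusted p = 7.69e-05), and also Samhd1 (-1.56, adjusted p = 2.4e-05) and Oasl1 (-1.55, adjusted p = 0.00145). Isg15, the ubiquitin-like interferon product, had a value of 0.67 (adjusted p = 0.235) and Mx1 of -0.61 (adjusted p = 0.129).

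In sulindac-treated over untreated adenoma 4 of 29 interferon-stimulated genes tested were lower (13.8%) and 0 were higher by edgeR, against 9.10% and 8.32% of all genes, with a median of -0.62. The 4 became 1 without sulindac-treated replicate 2 or 3, 2 without sulindac-treated replicate 1 or adenoma replicate 1, and 9 at an FDR of 5%. DESeq2 called 7 lower and 1 higher, and 1 was higher at an unadjusted p under 0.05. The 4 called by edgeR were Cmpk2 (-1.52, adjusted p = 0.00346), Ifit1 (-1.48, adjusted p = 0.00465), Cd274 (-1.23, adjusted p = 0.00349) and Samhd1 (-0.95, adjusted p = 0.00188). Of these, Cd274 and Cmpk2 had also risen from MIN to adenoma. Against MIN, 6 of 29 were higher and 10 were lower in sulindac-treated adenoma, where 23.0% and 26.8% of all genes were.

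Since Apc acts on the Wnt pathway, genes often used as targets of canonical Wnt signalling were set beside the family. Of 16 such genes, 13 (81.2%) rose from MIN to adenoma and 1, the stem cell receptor Lgr5, fell (-1.10, adjusted p = 0.00149), against 18.5% and 20.1% of all genes, with a median log2 fold change of 1.56. The largest rises were those of Notum (8.97), Nkd1 (8.15) and Wif1 (7.97), which encode inhibitors of the pathway, and of the transcription factor Lef1 (4.77), so that only the first came within 1 log2 unit of Ifitm1 (9.92). With sulindac edgeR called 4 of 16 lower than in untreated adenoma and 0 higher, against 9.10% and 8.32% of all genes, with a median of -0.53. The 4 became 2 without sulindac-treated replicate 3, 8 with library size alone and 9 at an FDR of 5%, and DESeq2 called 8 lower and 0 higher, with 0 higher at an unadjusted p under 0.05. Those of edgeR were Wif1 (-3.65, adjusted p = 0.00153), Sp5 (-1.42, adjusted p = 0.00131), Notum (-1.08, adjusted p = 0.00143) and Tcf7 (-0.62, adjusted p = 0.0021). Axin2, a general readout of the pathway, had 603 ± 40.8 CPM with sulindac and 731 ± 121 CPM without (SD, n = 3 each, log2 fold change -0.27, adjusted p = 0.166). Against MIN, 12 of 16 were higher in sulindac-treated adenoma, where 23.0% of all genes were.

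Proteins that modify or bind IFITM proteins formed a list of 8 genes, of which 1 rose and 1 fell (12.5% each), against 18.5% and 20.1% of all genes. Cd81, a tetraspanin that associates with Ifitm1, rose from MIN to adenoma (263 ± 22.8 to 488 ± 40.0 CPM, SD, n = 3 each, log2 fold change 0.89, adjusted p = 0.000312), and Fyn, a kinase that phosphorylates Ifitm3, fell (-1.80, adjusted p = 0.005). The number that fell was 0 without MIN replicate 1, adenoma replicate 1 or adenoma replicate 3, and the number that rose was 2 without adenoma replicate 3. Zdhhc20, a palmitoyltransferase, and Nedd4, the ubiquitin ligase that marks Ifitm3 for degradation, had values of -0.14 (adjusted p = 0.408) and 0.32 (adjusted p = 0.115). With sulindac, Atp6v0b, a subunit of the proton pump of endosomes, was called higher than in untreated adenoma (0.63, adjusted p = 0.00668), against 8.32% of all genes. No gene of this list was called higher with library size alone, with the replicate block or without adenoma replicate 1, adenoma replicate 2 or any 1 sulindac-treated sample, and 2 were without adenoma replicate 3. Of the 8 other genes of the CD225 or dispanin superfamily to which IFITM belongs, only Prrt2 and Tmem91 had enough counts to be tested. Tmem91 had 13 to 25 counts in adenoma and was called higher there than in MIN (adjusted p = 0.000696), which is 1 of 2 tested, against 18.5% of all genes. Its 1 to 2 counts in MIN were under the floor, so no fold is given. With at least 10 counts asked of every sample, 0 genes of this list were called higher. Ifitm10, the remaining gene with the family name, had at most 2 counts in any sample.

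**Figure D5:**
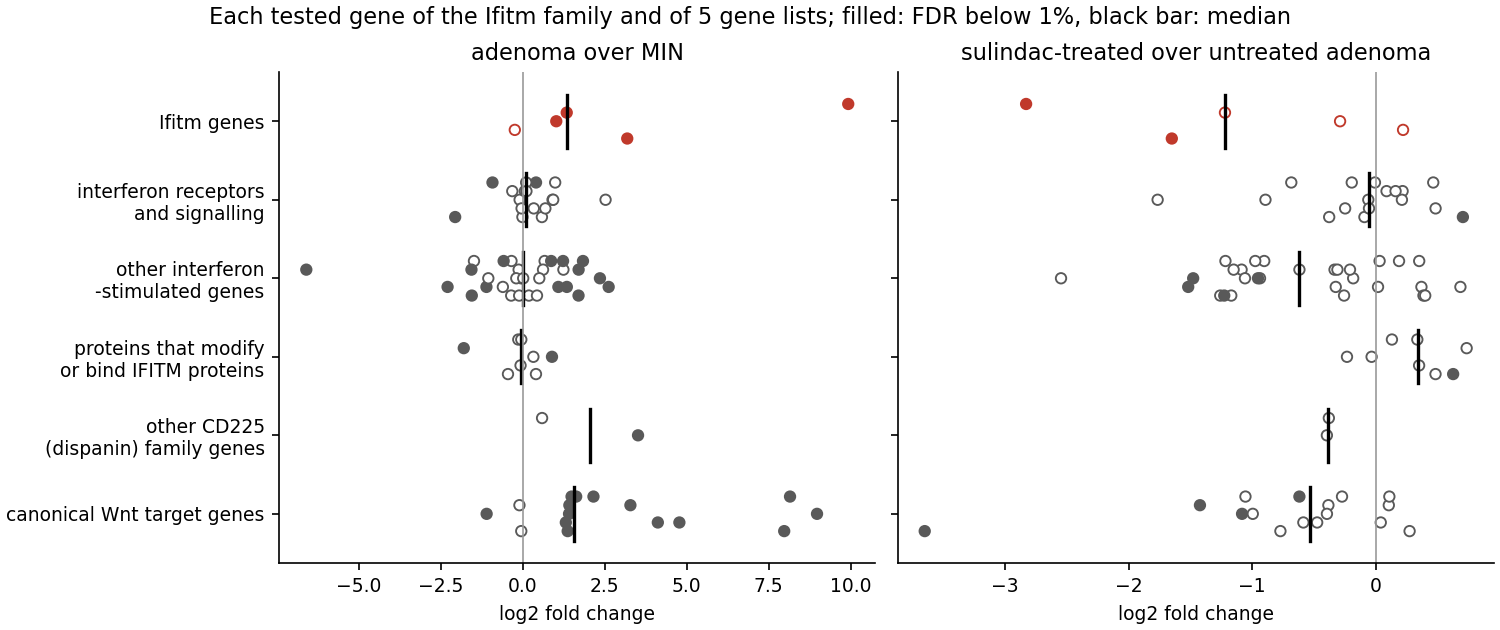
Log2 fold change of each tested gene of the Ifitm family (red) and of 5 lists of related genes (grey), with filled points for an FDR below 1% and a black bar for the median. In adenoma over MIN the Wnt targets have a median of 1.56 and the interferon-stimulated genes of 0.01, with Psmb8, at 0 to 1 counts in adenoma, as the leftmost point. The horizontal scales of the panels differ.

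The genes most like each member were found by Pearson's r of log2(CPM + 0.5) over the 9 samples among 13870 genes. As the samples form 3 groups, a high r means mainly a like order and spacing of the groups. Ifitm1 was nearest to Dlx4, a homeobox gene (r = 0.998). Dlx4 averaged 11.1 CPM in adenoma and 3.29 CPM after sulindac, and its mean in MIN was under the floor. In MIN the added 0.5 exceeds the means of Dlx4 and of Ifitm1 (0.453 CPM), so it shapes this r. Next came Mcam, an adhesion molecule (r = 0.995, with 1.90, 65.5 and 20.4 CPM in MIN, adenoma and sulindac-treated adenoma), then Fundc1, Tspan5 and Fbxl4. Ifitm2 was nearest to Ppp1ca (r = 0.988), a catalytic subunit of protein phosphatase 1, followed by Vegfb, Pnkd, Wdr8 and Zfp703. Ifitm3 was nearest to Tead2 (r = 0.997, with 14.3, 106 and 37.5 CPM), a DNA-binding partner of the co-activator YAP, then to Rnf135, Zbtb8a, Oscp1 and Cited4. Ifitm5 was nearest to Ttc21a (r = 0.979). Ifitm7 had no gene above r = 0.891, the value of D030040B21Rik. Among the members themselves, r was 0.959 for Ifitm1 and Ifitm2, 0.960 for Ifitm1 and Ifitm3 and 0.954 for Ifitm2 and Ifitm3. It was 0.838 for Ifitm5 and Ifitm3, and between -0.37 and -0.18 for Ifitm7 and each of the other 4.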

How the data were processed

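RNA was sequenced from 9 organoid cultures (MIN, adenoma and sulindac-treated adenoma, 3 each). The authors deposited 1 table of raw read counts per gene symbol, without normalization, and the submitters' processing notes name RSEM, Bowtie2 2.2.4 and the mm9 build, with no role given. MIN replicate 1 was deposited as 2 runs and their sum, and the sum was used as 1 sample. Samples were grouped by their titles. All 23955 rows entered the library totals of the CPM, whereas each edgeR fit used totals over the rows that passed its filter. The 27 rows whose symbol had become a date were kept but not named.

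Genes with low counts were removed by filterByExpr, libraries were scaled by TMM and groups were compared with the quasi-likelihood test of edgeR 4.0.16 (robust, R 4.3.3), fitting the groups compared only, at a Benjamini-Hochberg FDR of 1% over all genes tested. Standard errors were taken as the size of the log2 change over the root of its F statistic, and intervals are at 95%. This code was tested on simulated counts. Log2 ratios between members used counts plus 0.5. Levels per kilobase used the length of 1 GENCODE M21 transcript per gene, chosen by its mark as principal and then by coding length. These had 882 bases for Ifitm1, 655 for Ifitm2 and 678 for Ifitm3. Other transcripts were not tried, and the order of the members per kilobase depends on this choice. The floor of 3 counts and the depths cover counting error only.

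All 6 members were described. Of each list, at most 4 genes a direction were to be named, those with the largest change among the genes called in adenoma over MIN. Genes named beyond this (Stat2, Irf9, Isg15, Mx1, Axin2, Zdhhc20, Nedd4, Prrt2, Ifitm10, the genes called with sulindac, and the neighbours singled out) were chosen after their values were seen. The members and lists were chosen with earlier results of these data known. Rnf213 had no row, and 1 gene of the interferon signalling list is counted but not reported by name here. Promoters of all 6 members came from RefSeq, whose build differs from that of the counts and was used for sequence and gene order alone. Alternatives were to scale by RLE or by library size alone, to drop the low-count filter or to ask for 10 counts in each sample, 1 fit of all 9 samples, the replicate block, DESeq2 1.42.0, an FDR of 5%, adding 1 count in ratios and leaving out each sample.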

Additional observations from a re-analysis of the deposited data

How the results depend on the processing

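Ifitm1, Ifitm2 and Ifitm3 kept their direction and their side of the 1% threshold in all 3 comparisons under all 14 alternatives, except Ifitm3 in sulindac-treated adenoma over MIN, as given above. The log2 fold change of Ifitm1 lay between 9.77 and 10.09 in adenoma over MIN, -3.39 and -2.59 in sulindac-treated over untreated adenoma and 6.51 and 7.31 in sulindac-treated adenoma over MIN. The number of members called was 3 to 4, 2 to 3 and 2 to 3. The call of Ifitm5 in adenoma over MIN was also lost in the fit with a replicate block (adjusted p = 0.0177, and 0.00484 to 0.0310 over all alternatives, edgeR). Against untreated adenoma it was gained with library size alone (log2 fold change -1.38, adjusted p = 0.00951, the lowest, with 0.0749 the highest) and at an FDR of 5%. Library size alone shifted the median of all genes to 0.12 (log2) in adenoma over MIN and to -0.18 in sulindac-treated over untreated adenoma, and the members' values moved with it. There it called 603 genes higher and 1983 lower (23.3% of calls higher, against 47.8%), DESeq2 called 1778 higher, and an FDR of 5% gave 2034 higher and 2374 lower. Leaving out 1 sample gave 423 to 1403 genes higher and 386 to 1488 lower in the sulindac comparison, where fewer samples were fitted. Values that were not called and changed sign on leaving out 1 sample were those of Ifitm7 in sulindac-treated over untreated adenoma (-0.22 to 0.54, below 0 without sulindac-treated replicate 3), of Ifitm7 over MIN (-0.47 to 0.28, with 0.11, 0.0020 and 0.28 without MIN replicate 1, sulindac-treated replicate 1 and sulindac-treated replicate 2) and of Ifitm5 over MIN (-0.15 to 0.32, with -0.09 without MIN replicate 3 and -0.15 without sulindac-treated replicate 1). The cause of these changes was not tested. Same-numbered samples deviated together with r of 0.08 to 0.18 in adenoma over MIN, where each adenoma sample matched its own number best. In the sulindac comparisons r was -0.02 to 0.21 against adenoma and -0.04 to 0.30 against MIN. There each sulindac-treated sample matched its own number best, except replicate 3 against adenoma and replicate 1 against MIN. These values do not settle whether the samples are paired. The main fits were unpaired because the labels do not say what a shared number means. With the replicate block the members called were 3, 2 and 3. All ratios between members kept their sign and moved by less than the larger SD of the 2 groups compared, some by more than the smaller. Counts under about 60 limit Ifitm5, Ifitm6 and Ifitm7.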
